A study of Mus musculus with 4 samples.

Results

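The nuclear-encoded subunits of the oxidative phosphorylation (OXPHOS) machinery were examined in sorted mouse intestinal stem cells with and without CREPT, the protein encoded by Rprd1b. Members were all genes whose symbols belong to the Ndufa, Ndufb, Ndufc, Ndufs and Ndufv series (complex I), Sdha to Sdhd (complex II), the Uqcr series and Cyc1 (complex III), the Cox4 to Cox8 series with a letter a to c after the digit (complex IV) or the Atp5 series (complex V). This gave 80 of the 18436 genes measured, of which 37 were assigned to complex I, 4 to complex II, 9 to complex III, 13 to complex IV and 17 to complex V. RNA from Lgr5-GFPhigh cells, sorted by their GFP signal from disaggregated intestinal crypts of C57BL/6 mice, was sequenced for 2 Lgr5-CREPTWT mice (WT) and 2 Lgr5-CREPTKO mice (KO). Both genotypes carried the Lgr5-GFP-CreERT2 allele, which drives GFP and a tamoxifen-inducible Cre from the Lgr5 locus, and both received tamoxifen by intraperitoneal injection on consecutive days. The KO mice were also CREPT fl/fl, so deletion was limited to cells with an active Lgr5 locus and their descendants. The study used young adult mice of both sexes, and the age and sex behind each sample were not given in the sources used here. Values are FPKM, a read level divided by transcript length and by the size of the library, so a level can be compared between genes per length, and each is relative to all other RNA in that mouse.

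The respiratory chain lies in the inner mitochondrial membrane. Complexes I and II pass electrons from NADH and succinate to coenzyme Q, complex III passes them on to cytochrome c, complex IV gives them to oxygen, and complex V, the ATP synthase, uses the resulting proton gradient to make ATP. Each complex has a core that carries out the reaction and, except for complex II, a set of small accessory subunits. Lgr5-positive crypt base columnar cells are known for a high mitochondrial activity compared with the neighbouring Paneth cells.

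Promoters of these genes are known for binding sites of NRF1, of ETS factors such as GABP and of YY1. RefSeq windows of GRCm38.p6, from 250 bases before to 50 bases after a start site, were found for 67 of the 80 members. The letters GCATGCGC (the core of the NRF1 motif), CCGGAAG (ETS) and AAGATGGC (YY1) were searched on both strands. NRF1 letters were in 13.7% of the 73 member windows and in 2.71% of all 32851 windows. ETS letters were in 21.9% and 8.86%, and YY1 letters in 16.4% and 2.75%. Windows are shown for Ndufc1 and Atp5k, which fell in KO, and for Uqcrc1, which had the highest log2 fold change, and between them they hold all 3 motifs, which are in capitals. The Atp5k window lies at chr5:108434350-108434649 on the minus strand, with the NRF1 letters on both strands, overlapping, from 50 bases before the start site, and the ETS letters, read on the opposite strand as CTTCCGG, 12 bases after it, apart from the NRF1 letters. The Uqcrc1 window lies at chr9:108936398-108936697 on the plus strand and holds NRF1 letters on both strands, from 30 bases after the start site. The Ndufc1 window lies at chr3:51408906-51409205 on the minus strand and holds YY1 letters 22 bases after the start site. A match describes these letters and not a bound site.
Atp5k: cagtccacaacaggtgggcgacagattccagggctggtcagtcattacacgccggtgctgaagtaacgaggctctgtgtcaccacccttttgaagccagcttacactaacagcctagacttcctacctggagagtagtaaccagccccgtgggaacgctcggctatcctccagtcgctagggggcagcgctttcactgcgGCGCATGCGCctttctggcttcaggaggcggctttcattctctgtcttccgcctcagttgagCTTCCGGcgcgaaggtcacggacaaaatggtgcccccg
Uqcrc1: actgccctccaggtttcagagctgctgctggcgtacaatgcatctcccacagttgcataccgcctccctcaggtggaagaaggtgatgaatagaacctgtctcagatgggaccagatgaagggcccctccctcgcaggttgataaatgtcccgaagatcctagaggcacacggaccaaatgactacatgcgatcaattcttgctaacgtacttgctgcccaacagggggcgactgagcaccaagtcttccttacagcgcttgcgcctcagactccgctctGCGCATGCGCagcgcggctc
Ndufc1: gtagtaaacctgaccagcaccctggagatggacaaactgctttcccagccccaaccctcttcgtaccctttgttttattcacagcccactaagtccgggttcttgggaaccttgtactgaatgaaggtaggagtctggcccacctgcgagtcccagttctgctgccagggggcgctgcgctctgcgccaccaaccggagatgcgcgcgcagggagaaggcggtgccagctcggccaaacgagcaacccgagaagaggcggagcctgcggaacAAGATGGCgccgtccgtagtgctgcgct

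The genotype labels were checked first by the targeted gene. Rprd1b was at 17.69 and 18.09 FPKM in the WT mice and at 6.65 and 7.36 FPKM in the KO mice, a log2 fold change of -1.29 (SE 0.0946, limma adjusted p = 0.0280). Lgr5 was at 47.67 and 37.70 FPKM in WT and 52.04 and 60.10 FPKM in KO (adjusted p = 0.176), and Olfm4, another marker of these stem cells, was between 4932 and 5351 FPKM in the 4 mice. None of the 9 stem cell markers passed the test, but they lay on the higher side in KO. Both KO mice were above both WT mice for 8 of them (88.9%, against 25.6% of all genes), and 5 had an unadjusted p below 0.05 on the higher side (55.6%, against 9.27%). The median log2 fold change of the 9 was 0.27, and 0.18 with the correction for transcript length and GC content described below. Axin2, a Wnt target, was at 111.37 and 101.57 FPKM in WT and 141.08 and 146.00 FPKM in KO (adjusted p = 0.0601). Enteroendocrine, goblet and tuft markers lay on the lower side. Of the 12 enteroendocrine markers 7 fell (58.3%, against 2.67% of all genes). Their summed level was 206 and 240 FPKM in WT and 58.4 and 76.1 FPKM in KO. Of the 10 goblet markers 3 fell (30.0%), with sums of 1491 and 2481 FPKM in WT and 817 and 948 FPKM in KO. None of the markers of other cells passed. With the correction for transcript length and GC content described below, 4 enteroendocrine and 0 goblet markers were called, at list medians of -1.46 and -1.07. The tuft median was -1.33 there, with 0 called. Summed levels were 1488 and 1096 FPKM in WT and 881 and 2805 FPKM in KO for 11 Paneth markers, and 636 and 825 FPKM in WT and 475 and 821 FPKM in KO for 12 enterocyte markers. They were 23.1 and 51.5 FPKM in WT and 21.0 and 7.58 FPKM in KO for 9 tuft markers, 6 of them tested. For 10 immune and stromal markers, 6 of them tested, they were 516 and 1175 FPKM in WT and 284 and 887 FPKM in KO. The highest of these 6 had a 4-mouse mean of 708 FPKM, while the median WT level of the 6 was 1.39 FPKM. The immune and stromal sums thus mostly describe 1 gene. Il25 (tuft) and Col1a2 (stroma) were each listed at 0 in 1 mouse, and no other marker was at 0. The part of these lineages in the OXPHOS values was not tested. In these bulk samples fewer cells of a type and less RNA per cell cannot be told apart.

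OXPHOS transcripts were abundant in all 4 mice and were somewhat lower in KO. Their FPKM summed to 18192 and 19471 in the WT mice, or 3.67% and 3.90% of all FPKM, and to 16705 and 16598 in the KO mice, or 3.56% and 3.50%. Both KO sums lay below both WT sums. The mean of the sums differed by -11.6% in KO, and that of the sums over all genes by -5.29%. With 2 mice against 2, an exact permutation test of a single value cannot go below p = 0.333, so the sums are given as a description.

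Of the 80 members, 78 passed the filter of a mean of at least 0.5 FPKM. Cox6a2 and Ndufa4l2, tissue-restricted isoforms, did not. The log2 fold change of these 78 was below 0 for 68 and above 0 for 10, with a median log2 fold change of -0.18 (range -0.83 to 0.23), against -0.014 over all 12621 genes tested. Of them 4 fell at an adjusted p below 0.05 (5.13% of 78), where 2.67% of all genes were called lower, and no member was called higher, where 0.412% of all genes were. No member changed by more than 1 on the log2 scale, a size that 1.01% of all genes reached as calls on the lower side. Before adjustment, p was below 0.05 on the lower side for 31 members (39.7%, against 15.2% of all genes) and on the higher side for 1 member (1.28%, against 9.27%). Both KO mice lay below both WT mice for 51 members (65.4%), where 31.0% of all genes did so, and above both for 4 members (5.13%), where 25.6% did. The counts of calls rest on all 4 mice: without any 1 of them, limma called 0 genes in the whole table, with an unadjusted p below 0.05 on the lower side for 1177 to 1587 genes and 15 to 25 members.

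**Figure D1:**
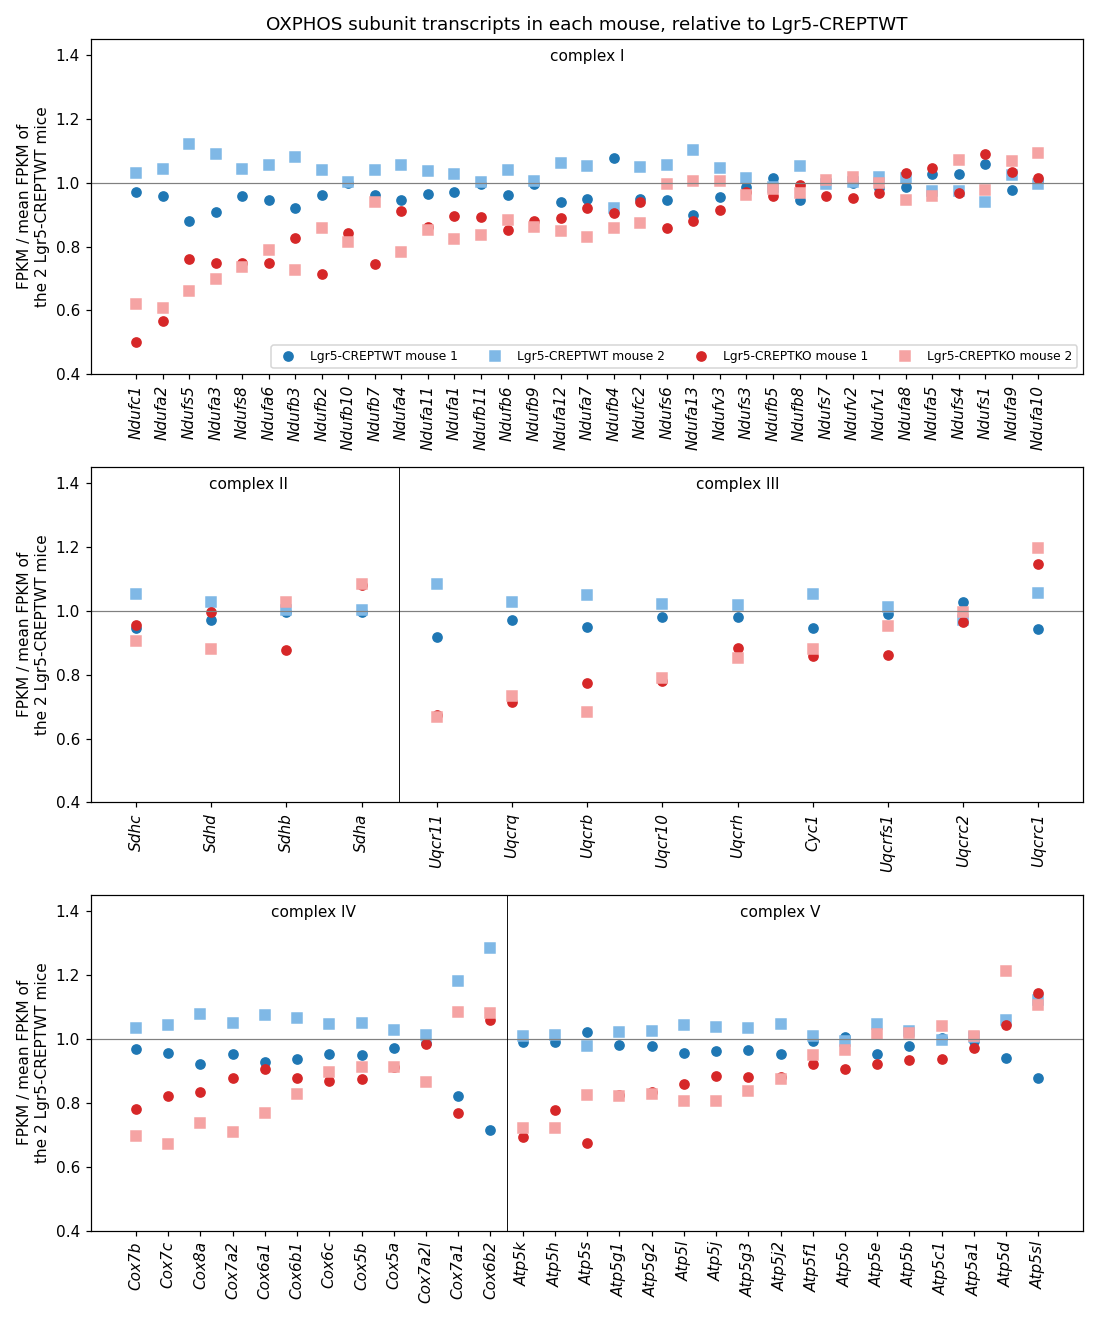
FPKM of 77 subunits above the filter in each mouse, divided by the mean of the 2 WT mice (y axis), with genes grouped by complex and ordered by log2 fold change (x axis). Blue points are WT and red points KO mice, circles mouse 1 and squares mouse 2, and the grey line marks the WT mean. Both red points lie below both blue ones for 50 of the genes drawn and above them for 4.

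The next paragraphs go through the complexes in the order of electron flow. Their counts without overlap stand beside all genes tested, of which 31.0% had both KO mice below both WT mice and 25.6% both above. The classes of subunit within a complex were drawn up after the values were seen, so their counts and medians are descriptions. The classes also differ in coding length, with medians of 789 bases for the core and 402 bases for the accessory subunits of complex I. Class medians corrected for length are given further below.

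Complex I, NADH dehydrogenase, had 36 members tested, with a median log2 fold change of -0.18. Of these 2 fell, both small accessory subunits. Ndufc1 was at 100.06 and 106.12 FPKM in WT and at 51.74 and 64.08 FPKM in KO. The KO mice were both below the WT mice, with a log2 fold change of -0.83 (SE 0.119, limma adjusted p = 0.0423). Ndufa2, a subunit of the matrix arm, was at 100 and 108.93 FPKM in WT and at 59.17 and 63.54 FPKM in KO. Its genotypes did not overlap either, with a log2 fold change of -0.76 (SE 0.0811, adjusted p = 0.0326). Ndufa2 shares 66 exon bases with Tmco6 on the opposite strand, and whether the quantification used strand is not given in the sources used here, whereas no such overlap was listed for Ndufc1.

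The members include 7 nuclear-encoded core subunits of complex I, which carry the flavin, the iron-sulphur clusters or the quinone site. Core subunits encoded in mitochondrial DNA were not analysed here. The 7 had a median log2 fold change of -0.025, against -0.20 for the 28 accessory subunits tested other than Ndufa4. Of the core, 6 were lower and 1 higher, 3 had no overlap on the lower side, and none was called. Ndufs1, the largest core subunit, was at 71.20 and 63.18 FPKM in WT and at 73.26 and 65.73 FPKM in KO. These ranges overlapped, with a log2 fold change of 0.049 (SE 0.0971). Ndufs8 stood apart from the rest of the core, at 89.11 and 97.04 FPKM in WT and 69.52 and 68.46 FPKM in KO. This iron-sulphur subunit had a log2 fold change of -0.43 and missed the threshold (adjusted p = 0.0583). Relative to Ndufs1 in the same mouse, Ndufa2 was at 1.40 and 1.72 in WT and at 0.808 and 0.967 in KO. Relative to Ndufv1, the flavin-carrying subunit, Ndufc1 was at 0.693 and 0.710 in WT and at 0.364 and 0.436 in KO. Ndufa2 and Ndufc1 fell while Ndufs1 and Ndufv1 overlapped between the genotypes, so these ratios add no separate result.

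Among the accessory subunits 19 of 28 had both KO mice below both WT mice (67.9%, against 31.0% of all genes). For 2 both were above (7.14%, against 25.6%). The latter were Ndufa10, at 135.60 and 134.55 FPKM in WT and 137.05 and 147.79 FPKM in KO, and Ndufa9, at 126.51 and 132.59 FPKM in WT and 133.92 and 138.36 FPKM in KO. Their log2 fold changes were 0.075 and 0.072, neither past the test (adjusted p = 0.568 and 0.567). Ndufa4, named for complex I but known as a subunit of complex IV, had the highest level of the Nduf genes, at 416.53 and 464.24 FPKM in WT and at 401.43 and 344.20 FPKM in KO. Its KO values were the lower ones without passing the test (log2 fold change -0.24, adjusted p = 0.251).

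Complex II, succinate dehydrogenase, which also belongs to the citric acid cycle, showed the smallest median of the 5 complexes, at -0.084 over its 4 members. No member was called. Sdha, the flavoprotein, was at 252.42 and 254.20 FPKM in WT and at 273.64 and 274.26 FPKM in KO, so both KO mice were above both WT mice. Its log2 fold change was 0.11 (95% confidence interval -0.052 to 0.28, adjusted p = 0.348). The iron-sulphur subunit Sdhb was at 175.29 and 176.58 FPKM in WT and 154.48 and 180.83 FPKM in KO, with overlap. The membrane anchors Sdhc and Sdhd overlapped between the genotypes as well, with log2 fold changes of -0.10 and -0.094.

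Complex III, the cytochrome bc1 complex, is given by size of subunit. Its 5 small subunits (Uqcr10, Uqcr11, Uqcrb, Uqcrh and Uqcrq) all had both KO mice below both WT mice, with a median log2 fold change of -0.46. Uqcrq, a small subunit that binds near cytochrome b, was at 113.35 and 119.93 FPKM in WT and at 83.48 and 85.66 FPKM in KO, and was the member that fell (log2 fold change -0.46, SE 0.0690, adjusted p = 0.0460). Uqcr11 was at 283.93 and 335.37 FPKM in WT and at 208.47 and 206.64 FPKM in KO. Its log2 fold change of -0.57 missed the threshold, with WT mice that lay further apart (SE 0.0993, adjusted p = 0.0581). Uqcrb and Uqcr10 differed by -0.46 and -0.35 on the log2 scale (adjusted p = 0.0741 and 0.0655). Uqcrh, the hinge protein, was the most abundant of the complex, at 378.30 and 393.25 FPKM in WT and 341.28 and 328.55 FPKM in KO.

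The 4 large or redox-carrying subunits of complex III had a median of -0.085. Uqcrc1, a core protein, had the highest log2 fold change of all members, at 255.71 and 286.38 FPKM in WT and at 310.71 and 324.36 FPKM in KO. Both KO mice were above both WT mice, by 0.23 on the log2 scale (SE 0.0849, 95% confidence interval 0.012 to 0.45, adjusted p = 0.188). Uqcrc2, the other core protein, overlapped at 236.58 and 223.64 FPKM in WT and 221.84 and 229.28 FPKM in KO. Cyc1, cytochrome c1, and Uqcrfs1, the Rieske iron-sulphur protein, had log2 fold changes of -0.20 and -0.14. The level of Uqcr11 relative to Uqcrc1 was 1.11 and 1.17 in the WT mice and 0.671 and 0.637 in the KO mice, and that of Uqcrq relative to Uqcrc1 was 0.443 and 0.419 in WT and 0.269 and 0.264 in KO. Uqcr11 and Uqcrq were lower and Uqcrc1 higher in KO without overlap, so these ratios had to lie apart and add no separate result.

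Complex IV, cytochrome c oxidase, draws its catalytic subunits from mitochondrial DNA, and these were not analysed here. The nuclear members are small subunits around that core. The median log2 fold change of the 12 tested was -0.20, and none was called, with an unadjusted p below 0.05 for 4, all lower. Leaving aside the tissue isoforms Cox7a1 and Cox6b2, all 10 had both KO mice below both WT mice, with a median of -0.24. Cox7b was at 173.28 and 184.88 FPKM in WT and at 139.78 and 124.74 FPKM in KO (log2 fold change -0.44, adjusted p = 0.0688). Cox7c was at 470.00 and 513.86 FPKM in WT and at 403.76 and 329.65 FPKM in KO (-0.43, adjusted p = 0.121). The KO mice were apart from each other by more than the WT mice, and mouse 2 was the lower one in both genes. The most abundant members, Cox6a1 and Cox8a, had the same order. Cox6a1 was at 701.69 and 812.53 FPKM in WT and at 685.44 and 580.38 FPKM in KO, and Cox8a at 674.37 and 788.99 FPKM in WT and 610.76 and 538.75 FPKM in KO. Neither passed the test (adjusted p = 0.270 and 0.156).

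The isoforms of complex IV known from heart, muscle and testis were low. Cox6b1, the general isoform, made up between 98.6% and 99.2% of Cox6b transcripts in the 4 mice. Cox7a1 made up 1.85% and 2.51% of the Cox7a family in WT and 1.79% and 2.93% in KO, Cox7a2 38.3% and 39.7% in WT and 36.5% and 34.2% in KO, and Cox7a2l, which is known to help join complexes III and IV, 59.9% and 57.8% in WT and 61.7% and 62.9% in KO. The shares of Cox7a2 were thus lower and those of Cox7a2l higher in both KO mice. Cox6a2 was at 0.17 and 0.08 FPKM in WT and at 0.00 and 0.09 FPKM in KO, and Ndufa4l2 did not exceed 0.06 FPKM.

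Complex V, the ATP synthase, had the most abundant member, Atp5b, and its parts are given in turn. The catalytic F1 part (Atp5a1, Atp5b, Atp5c1, Atp5d and Atp5e) had no member without overlap and a median log2 fold change of -0.018. Atp5b, the catalytic beta subunit, was at 1278 and 1340 FPKM in WT and at 1222 and 1335 FPKM in KO, a log2 fold change of -0.035 (95% confidence interval -0.26 to 0.19). Atp5a1, the alpha subunit, was at 683.92 and 692.12 FPKM in WT and 668.57 and 695.19 FPKM in KO. The sums of the 5 F1 genes were 2980 and 3123 FPKM in WT and 2914 and 3183 FPKM in KO, and the KO mean differed from the WT mean by -0.0988%.

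The membrane part and the stalk of complex V were on the lower side. Atp5k, the small subunit e that takes part in dimer formation, was at 214.29 and 218.03 FPKM in WT and at 149.74 and 155.58 FPKM in KO. It fell, with no overlap (log2 fold change -0.50, SE 0.0659, adjusted p = 0.0376). The level of Atp5k relative to Atp5b was 0.168 and 0.163 in WT and 0.123 and 0.117 in KO. Since Atp5b overlapped between the genotypes, this ratio restates the fall of Atp5k and adds no separate result. The 3 small membrane subunits, Atp5k, Atp5l and Atp5j2, had a median of -0.27, and all were without overlap. The 4 peripheral stalk subunits had a median of -0.17, also all without overlap, led by Atp5h (subunit d) at 354.28 and 362.15 FPKM in WT and 278.41 and 258.15 FPKM in KO (log2 fold change -0.42, adjusted p = 0.0595).

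The c subunit, which forms the rotor ring, is encoded by 3 genes for an identical mature protein. Atp5g1 was at 278.85 and 290.57 FPKM in WT and 234.30 and 233.57 FPKM in KO, Atp5g2 at 445.33 and 466.45 FPKM and 380.06 and 376.59 FPKM, and Atp5g3 at 613.35 and 656.65 FPKM and 558.52 and 531.12 FPKM. All 3 had both KO mice below both WT mice without passing the test, at log2 fold changes of -0.28, -0.27 and -0.22. Their shares of the family hardly moved, with Atp5g1 at 20.8% and 20.6% in WT and 19.98% and 20.5% in KO, and Atp5g3 at 45.9% and 46.5% in WT and 47.6% and 46.5% in KO. Atp5d, the delta subunit, and Atp5sl had the highest log2 fold changes of the Atp5 genes, at 0.17 and 0.18, with overlap between the genotypes for both. Atp5sl is named Dmac2 in RefSeq and is known as an assembly factor, and it and Atp5s, named Dmac2l there, are counted in complex V by symbol only.

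**Figure D2:**
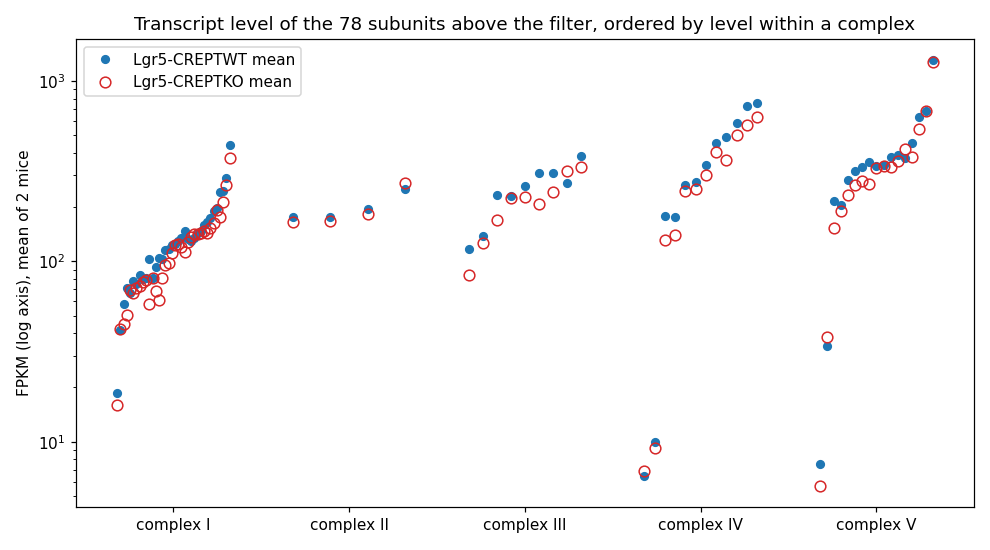
Mean FPKM of the 2 WT mice (filled blue) and of the 2 KO mice (open red) for the 78 subunits above the filter on a log axis, ordered by level within each complex. Levels span from 6.63 FPKM (Atp5s, drawn with complex V) to 1294 FPKM (Atp5b) as means over the 4 mice. The 2 low complex IV genes are the tissue isoforms Cox6b2 and Cox7a1.

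The size of the difference followed the coding length of the gene, for the members and for the table as a whole. OXPHOS members are short, with a median coding length of 426 bases, against 1359 bases over all genes tested. In the 20 members with a coding length of at most 300 bases, which include all 4 that fell, the median log2 fold change was -0.34. The 282 genes of all kinds in that class had a median of -0.25, and 11.0% of them were called lower. For the 24 members of 301 to 450 bases the median was -0.22, equal to the -0.22 of the 652 genes in the class. In the 12 members of 451 to 600 bases it was -0.098 against -0.15. The 2 members of at least 1801 bases, Sdha and Ndufs1, had a median of 0.081, and the 3901 genes in that class had 0.10. Across genes, which are not independent replicates, Spearman's rho of log2 fold change with coding length was 0.645 over the 78 members and 0.415 over 11710 genes, and Pearson's r was 0.599 and 0.336.

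**Figure D3:**
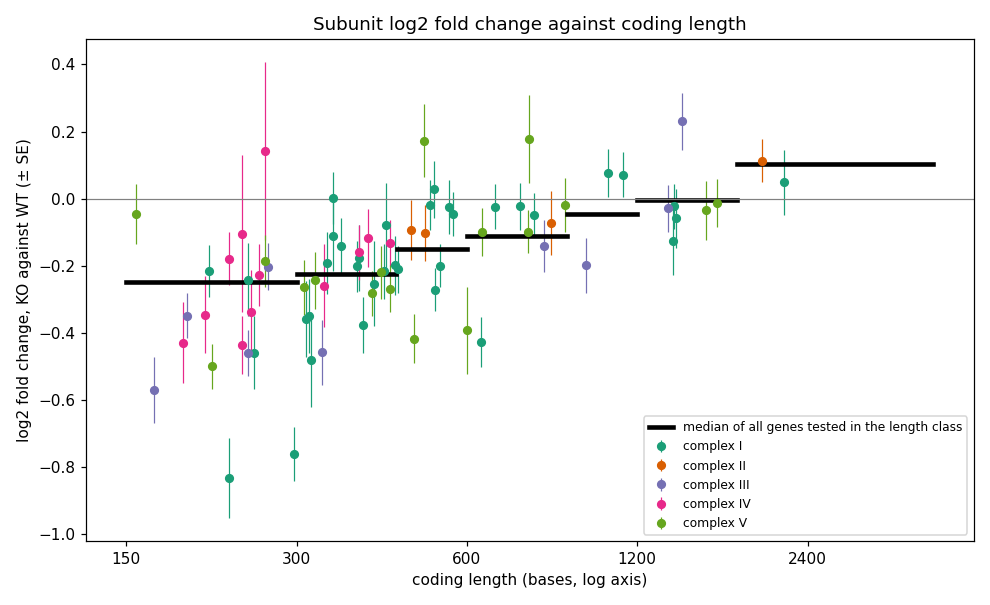
Log2 fold change of KO against WT with its standard error (y axis) against coding length on a log axis (x axis) for the 78 subunits, coloured by complex. Black bars give the median of all genes tested in each length class and run from -0.25 in the shortest to 0.10 in the longest, and the subunits scatter around them.

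After a loess correction of each mouse for the length and the GC content of transcripts, the lower side of the OXPHOS genes did not remain. Their median became 0.041, with 28 lower and 50 higher and none called, and 7 had an unadjusted p below 0.05 on the lower side and 6 on the higher. The medians of complexes I, II, IV and V became 0.063, 0.085, 0.059 and 0.028, while that of complex III was -0.056. The correction used transcript length and not coding length. Spearman's rho of the corrected log2 fold change with coding length was still 0.341 over the members and 0.120 over all genes with a coding length. The corrected class medians are therefore not free of coding length. By class, they were 0.11 for the core and 0.041 for the accessory subunits of complex I. In complex III they were 0.050 for the large or redox-carrying subunits and -0.13 for the small ones. In complex V they were 0.12 for the F1 part, 0.0072 for the stalk, -0.038 for the c subunit and 0.028 for the small membrane subunits. Of the 4 that fell, Ndufa2 came to a log2 fold change of -0.48 (adjusted p = 0.0548), Ndufc1 to -0.50 (adjusted p = 0.0754), Uqcrq to -0.33 (adjusted p = 0.0786) and Atp5k to -0.19 (adjusted p = 0.211). Over all genes 131 were called lower and 12 higher in that fit. Rprd1b itself kept its call, at -1.37 (adjusted p = 0.0289). The part of length in these differences was not tested beyond this correction.

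**Figure D4:**
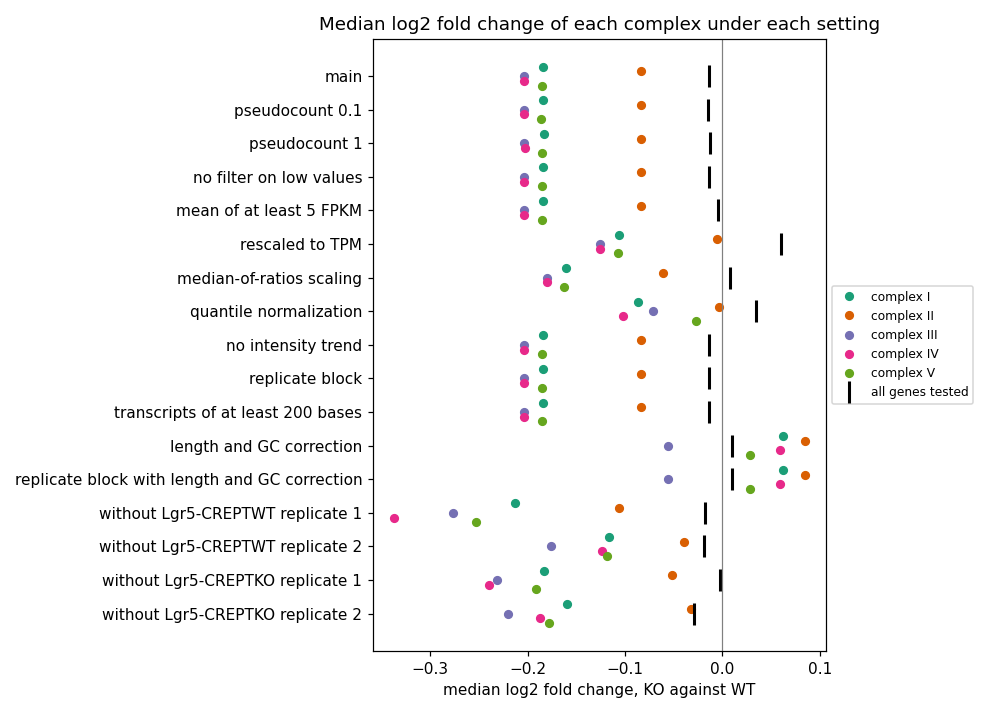
Median log2 fold change of each complex (coloured points) and of all genes tested (black bar) on the x axis, under each way of processing on the y axis. The medians of complexes I, II, IV and V lie below 0 under every setting but the 2 with a length and GC correction, where that of complex III alone is below 0, at -0.056.

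Genes around the respiratory chain showed where the other differences lay. Subunits that the symbol rule leaves out (Ndufab1, Cox4i1, Cycs, Usmg5, 2010107E04Rik and Atpif1) were centred on a log2 fold change of -0.41 (median), with none of 6 called. An unadjusted p was below 0.05 for 5, all lower (83.3%, against 15.2% of all genes). After the correction for length and GC the median of this list was -0.12, and none was called. Cycs, cytochrome c, was at 53.74 and 52.24 FPKM in WT and at 39.93 and 38.50 FPKM in KO, close to the threshold (log2 fold change -0.43, adjusted p = 0.0505). Cox4i1 overlapped, at 662.29 and 725.06 FPKM in WT and 702.64 and 703.12 FPKM in KO.

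Single assembly factors, which help build the complexes without being part of them, had log2 fold changes past -1, which no subunit had. Of 25 complex IV assembly factors 6 fell (24.0%, against 2.67% of all genes) and none rose, with a list median of -0.17. These factors are short, with a median coding length of 318 bases. Of all genes with a coding length of at most 300 bases 11.0% were called lower, and of those of 301 to 450 bases 7.21%. Pet100 was at 10.72 and 11.83 FPKM in WT and at 3.84 and 3.90 FPKM in KO (log2 fold change -1.43, adjusted p = 0.0280). Coa4 was at 14.20 and 16.90 FPKM in WT and at 6.14 and 5.36 FPKM in KO (-1.36, adjusted p = 0.0301). Cox20, a chaperone of the mitochondrially encoded COX2, was at 89.45 and 87.08 FPKM in WT and at 47.72 and 50.15 FPKM in KO (-0.84, adjusted p = 0.0282). The genotypes did not overlap in any of the 3, and these remained past the threshold after the correction for length and GC (adjusted p = 0.0296, 0.0430 and 0.0476). Coa3, Coa6 and Cox16, at -0.59, -0.66 and -0.66, did not (adjusted p = 0.0849, 0.0841 and 0.104 there). Several of these log2 fold changes were much smaller after the correction, at -0.52 for Cox20, -0.37 for Coa3, -0.40 for Coa6 and -0.36 for Cox16, whereas Pet100 and Coa4 were at -1.26 and -1.21. Pet100 and Cox20 share 941 and 804 exon bases with genes on the opposite strand, Pcp2 and Hnrnpu, and Coa6 shares 105 with Tarbp1.

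Of 15 complex I assembly factors 1 fell (6.67%, against 2.67% of all genes). Ndufaf3 was at 9.91 and 9.46 FPKM in WT and at 2.47 and 3.47 FPKM in KO, a log2 difference of -1.57 (adjusted p = 0.0333, and 0.0430 after the correction). It shares 48 exon bases with Impdh2 on the opposite strand. No factor of complexes II and III (10 tested, 2 with an unadjusted p below 0.05, both lower) or of complex V (4 tested, none with an unadjusted p below 0.05) was called. Of these, Uqcc3 and Tmem242 had the smallest p, at log2 fold changes of -0.35 and -0.071.

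Feeder pathways and regulators were looked at next. Of 26 genes of the citric acid cycle and pyruvate entry 1 fell (3.85%, against 2.67% of all genes), and the list median was 0.046. The gene was Idh3g, a regulatory subunit of NAD-dependent isocitrate dehydrogenase. It went from 164.83 and 164.44 FPKM to 110.57 and 113.65 FPKM (log2 fold change -0.55, adjusted p = 0.0336). Of 13 coenzyme Q genes 1 fell (7.69%), Coq4, from 10.15 and 10.97 FPKM to 4.67 and 4.58 FPKM (-1.11, adjusted p = 0.0298). Of 24 genes of mitochondrial import and carriers 2 fell (8.33%), the inner membrane import proteins Timm8b (-0.76, adjusted p = 0.0301) and Timm17b (-0.53, adjusted p = 0.0498). After the correction for length and GC, Coq4 kept its call (-1.04, adjusted p = 0.0376), and Idh3g (-0.41, adjusted p = 0.0563), Timm8b (-0.47, adjusted p = 0.0568) and Timm17b (-0.49, adjusted p = 0.0695) did not. None of the 19 genes of mitochondrial biogenesis and transcription was called, with a list median of 0.033 and 2 unadjusted p below 0.05, both higher. Myc had the smallest p of them, at 74.70 and 91.01 FPKM in WT and 101.62 and 109.40 FPKM in KO (log2 fold change 0.35, adjusted p = 0.151). Transcripts of Nrf1, Gabpa and Yy1, whose motifs were searched above, differed by -0.013, -0.096 and 0.13 on the log2 scale, none past the test (adjusted p = 0.944, 0.542 and 0.412).

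**Figure D5:**
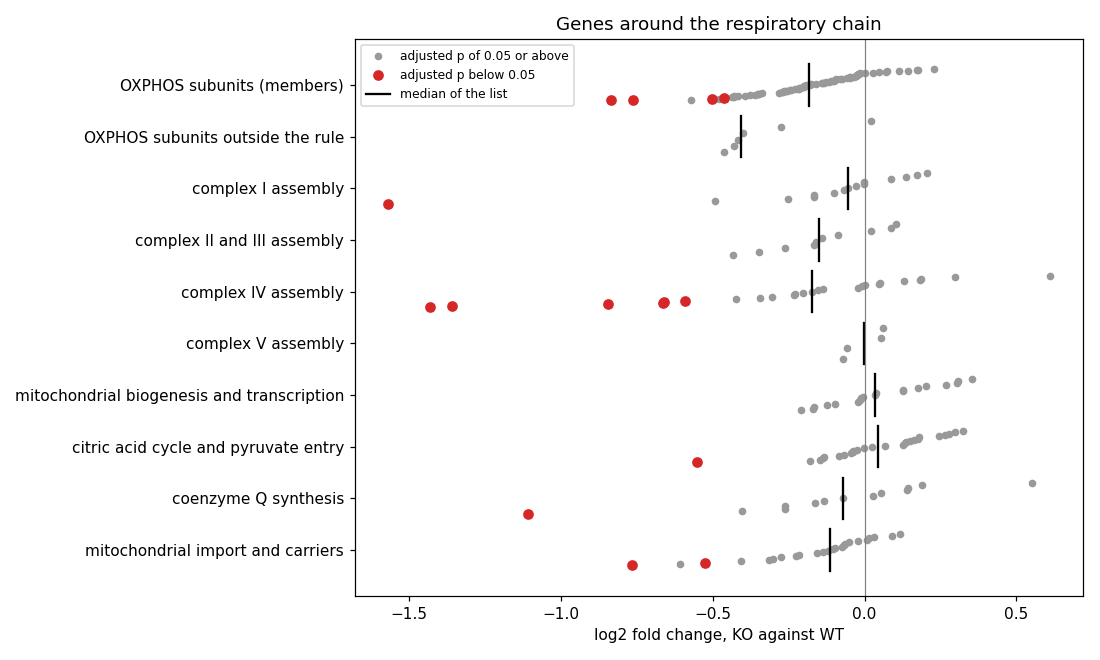
Log2 fold change of KO against WT (x axis) for each gene tested in the OXPHOS members and in 9 lists of related genes (y axis), with genes at an adjusted p below 0.05 in red and the list median as a black line. The red points all lie to the left of 0, and the lowest belong to Ndufaf3 in complex I assembly and to Pet100 and Coa4 in complex IV assembly.

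Members were last compared by the letters in their promoter windows. The 16 members with ETS letters were all lower, where 87.2% of the 78 members tested were. Their median was -0.25 on the log2 scale, against -0.14 for the members with a window and no such letters. The 10 with NRF1 letters had a median of -0.26, against -0.16 without, and included both Atp5k, which fell, and Uqcrc1, the member with the highest log2 fold change. The 11 with YY1 letters, among them Ndufc1, had a median of -0.099, against -0.20 without. After the correction for length and GC the medians of the members with ETS, NRF1 and YY1 letters were 0.013, 0.0098 and 0.11. Corrected medians of the members without the letters were not computed, so these contrasts cannot be judged after the correction.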

How the data were processed

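RNA from sorted Lgr5-GFPhigh cells of 4 mice was measured, 2 per genotype, with the genotype and number of each mouse taken from the sample titles. The authors deposited 1 table of FPKM values with 1 column per mouse. By the study's methods Bowtie2 mapped the reads to GRCm38.p6 transcripts and RSEM estimated gene levels, and the submitters' processing notes also name HISAT. Versions are not given in the sources used here. The table holds no counts, so the depth behind each value is unknown and no interval for counting error was computed. FPKM divides by transcript length and library total, and FPKM sums were 468830 to 499327 per mouse. The study used a count model, for which these values are not suited.

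Values were taken as log2(FPKM + 0.5), a scale that understates changes of low genes. The filter asked for 0.5 FPKM or more as a 4-mouse mean. The test was that of limma 3.58.1 under R 4.3.3 (lmFit, eBayes with an intensity trend, 2-sided), fitted to 12621 of 18436 genes with Benjamini-Hochberg adjustment over all of them. A gene was called, and is said to have fallen, at an adjusted p below 0.05. All p-values in the text named as adjusted are from this limma fit or from its stated alternative. The samples of a genotype were taken as separate mice by their numbers, and p-values measure only the spread between these samples, which may be technical. Same-numbered mice were not paired: their deviations from the genotype means correlated at -0.0266. The members and lists were chosen with earlier results of these data known. Genes named were Rprd1b, Lgr5, Olfm4, called members, in each complex the 2 highest and 2 lowest log2 fold changes and the 2 most abundant, tissue isoforms, and the called genes of each list or the one with the smallest p. Other members and Nrf1, Gabpa, Yy1, Cox4i1 and Cycs were named after their values were seen. Vil1, Avil, Mmp7, Vim and single markers of the other lineages also met this rule and are given as list counts only.

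Transcript and coding lengths and GC content came from GENCODE on the same assembly for 98.5% of genes and all 80 members. The correction for length and GC used loess with a span of 0.5 in each mouse. Other pseudocounts (0.1 and 1), filters, scalings, fits and the omission of each mouse were tried. The scripts were tested on simulated data. Of the symbols, 18332 were matched to RefSeq, directly or by a unique synonym. Promoter windows are RefSeq's on GRCm38.p6. The values of 1 member are not reported here.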

Additional observations from a re-analysis of the deposited data

How the results depend on the processing

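Pseudocounts of 0.1 and 1 and median-of-ratios scaling left the count of members called lower at 4. That count was 7 with a mean of at least 5 FPKM and with transcripts of at least 200 bases, 3 with FPKM rescaled to TPM and with quantile normalization, 2 with the replicate block, and 0 without a filter on low values, without an intensity trend, with the length and GC correction and with the block and correction together. By complex, the calls of complex III were 2 and those of complex V 2 under the stricter filter and the length minimum. Complex III had 0 with TPM, quantile normalization and the block, complex V had 0 with the block, and complexes I, III and V had 0 under the 4 settings without calls. Over all genes 337 lower and 52 higher calls became 0 and 0 without a filter (unadjusted p below 0.05 for 2250 lower), 4 and 0 without a trend, 168 and 15 with the block, 531 and 127 with the length minimum, 447 and 116 with the stricter filter, 243 and 85 with TPM, 131 and 12 with the correction and 36 and 5 with both. TPM moved the median of all genes from -0.014 to 0.060 and the share of calls that were lower from 86.6% to 74.1%. Without any 1 mouse all counts were 0 (members, complexes, lists and all genes), since 3 mice leave less to estimate the spread from, and the lone mouse of a genotype was assumed to vary like the others. The numbers pair no mice, and the block fit is given for completeness.

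The median log2 fold change of the members was -0.10 with TPM, -0.073 with quantile normalization and 0.041 with the correction, alone or with the block, and lay between -0.24 and -0.12 without 1 mouse. It was -0.24 without Lgr5-CREPTWT mouse 1 and -0.12 without mouse 2. For complexes I to V it was -0.11, -0.0055, -0.13, -0.13 and -0.11 with TPM, and -0.087, -0.0030, -0.072, -0.10 and -0.027 with quantile normalization. With the correction, complexes I to V had 0.063, 0.085, -0.056, 0.059 and 0.028. Without 1 mouse the ranges were -0.21 to -0.12, -0.11 to -0.033, -0.28 to -0.18, -0.34 to -0.12 and -0.25 to -0.12. Rprd1b kept -1.29 but not its call without a filter or without a trend, and ranged from -1.36 to -1.23 without 1 mouse.

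Among the lists, subunits outside the rule had 2 calls with the stricter filter and with the length minimum, and complex I assembly had 2 there and 0 without a filter, without a trend and with block and correction. Complex IV assembly had 3 with the block and 3 with the correction, and 0 in the other 3 cases. The citric acid cycle list had 0 with the block, the correction, both, no filter and no trend. Coenzyme Q had 0 without a filter, without a trend and with both. Import and carriers had 1 with a pseudocount of 1, TPM, median-of-ratios, quantile normalization and the block, and 0 with no filter, no trend, the correction or both.

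For the members named by the rule and tested, 435 of 512 comparisons kept direction and call, 36 lost the call, 4 gained it and 37 changed sign. With the correction the sign turned for Ndufa4 (0.062), Sdhd (0.077), Sdhb (0.093), Uqcrc2 (0.087), Uqcrh (0.086), Cox7a1 (0.20), Atp5a1 (0.023), Atp5b (0.045), Cox7a2l (0.072) and Atp5g3 (0.036), with or without the block. With TPM it turned for Sdhb (0.0043), Uqcrc2 (0.050), Atp5a1 (0.065) and Atp5b (0.043). With quantile normalization it turned for Sdhb (0.022), Uqcrc2 (0.092), Atp5a1 (0.073), Atp5b (0.090) and Cox7a2l (0.026), and with median-of-ratios for Atp5a1 (0.0098). Tmem242, an assembly factor and no member, turned with the correction, with or without the block (0.14), and with TPM (0.0063). Without 1 mouse the ranges that cross 0 were those of Sdhb (-0.19 to 0.040), Uqcrc2 (-0.069 to 0.012), Cox7a1 (-0.35 to 0.15), Cox6b2 (-0.25 to 0.53), Atp5a1 (-0.041 to 0.015) and Atp5b (-0.099 to 0.029). Apart from the length correction, the cause of these shifts was not tested.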
